A study of Rattus norvegicus with 6 samples.

Results

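The cadherins and protocadherins are calcium-dependent adhesion proteins of the cell surface. The genes described here are those whose symbol is Cdh followed by a digit or starts with Pcdh, on rows of the value table that carry 1 gene symbol. The rule found 31 of the 14506 genes measured in this way, and each had 1 row on the array. Of these, 9 belong to the clustered protocadherins, all of them Pcdhb genes, and 22 are other cadherins and protocadherins. RefSeq's gene table for rat (assembly GRCr8) holds 73 protein-coding genes whose symbols fit the rule. A further 16 of these are found only on rows that list several genes, and the other 26 were not analysed here.

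Cultures of primary motor neurons from rat embryos of embryonic day 13.5 were kept for 2 days. They then received 1 microM camptothecin, a poison of topoisomerase 1 that holds the enzyme on the DNA it has nicked, or an equal volume of its solvent DMSO, for 2 h. Each treatment had 3 arrays, and the labels number the biological replicates but give no litter, dissection or dish for them. The p-values therefore describe only the scatter of these 6 arrays, which may be technical. Values are log2 expression values, 1 per row and array, and changes are camptothecin minus DMSO with limma's standard error (SE) and n = 3 per treatment. A gene is said to have risen or fallen only where its p-value, adjusted over all 29214 rows, was under 0.05.

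Array medians over all rows were 6.31 to 6.33 with camptothecin and 6.22 to 6.28 with DMSO. A row is called dim where its mean over the 6 arrays was below 6.28, the median of all row means. Of 9 measured motor neuron markers 6 were dim, among them the motor neuron transcription factor gene Isl1 and the vesicular acetylcholine transporter gene Slc18a3, and none was at 0. The summed log2 value of the 9 markers was 58.3 to 59.8 with camptothecin and 58.4 to 58.6 with DMSO. Of the 9, Prph (0.31), Nefh (0.59) and Nefm (0.42) rose and 0 fell, where 11.3% of all genes rose and 9.35% fell. The other 6 did not pass: Isl1 (-0.27), Isl2 (0.09), Slc18a3 (-0.11), Slc5a7 (-0.34), Lhx3 (0.02) and Lhx4 (-0.20). For 9 markers of spinal interneurons and sensory neurons, none of them dim, the sum was 72.7 to 73.8 with camptothecin and 76.3 to 77.2 with DMSO. Of these, 5 fell and 0 rose. The falls were Slc6a5 (-1.79), Gad2 (-0.99), Slc17a6 (-0.80), Gad1 (-0.57) and Pax2 (-0.25). The other 4 were above 0 and did not pass: Slc32a1 (0.23), Lhx5 (0.26), Lhx1 (0.10) and Pou4f1 (0.08). Of 9 neural progenitor and astroglial markers 1 was dim, and 1 fell and 0 rose. Their sum was 75.2 to 76.0 with camptothecin and 75.2 to 75.8 with DMSO. Among them Fabp7, Vim and Slc1a3 averaged 12.41, 11.81 and 10.03 with DMSO. Sox2, Nes, Hes5, Pax6 and Aldh1l1 averaged 7.65, 7.30, 7.14, 6.88 and 6.49, and the dim Gfap 5.83. Of 5 measured oligodendrocyte and Schwann cell markers 1 was dim, and 1 fell and 0 rose. Their sum was 33.2 to 33.5 with camptothecin and 33.8 to 34.3 with DMSO. Of 7 fibroblast and meningeal markers 3 were dim, and 1 fell and 0 rose. Of 7 endothelial, blood and microglial markers 4 were dim, and 0 fell and 0 rose. The sums of both these lists overlapped between treatments. The part of all these markers in the results below was not tested. In RNA from whole cultures, fewer cells of a type and less RNA per cell cannot be told apart.

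Classical cadherins join cells by pairing with cadherins of the neighbouring cell, and catenins link their tails to actin. In the spinal cord, type II cadherins are expressed in combinations that help to sort motor neurons into pools. Most protocadherins outside the clusters, among them the delta protocadherins, act in adhesion, axon growth and cell sorting. The clustered protocadherins come as Pcdha, Pcdhb and Pcdhg genes in tandem arrays, and each neuron chooses among their promoters, which gives the cells different surface identities. That choice depends on the insulator protein CTCF and on cohesin.

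The 9 measured Pcdhb genes lie in 1 tandem array, and stretches of their promoters are shown because they let a reader see how alike these copies are. The windows are RefSeq's, in the build GRCr8, from 250 bases before to 50 after each annotated start. Among all 10-letter words in the 19 Pcdhb windows, GGTGGCGCTG occurred in the most, 15 of 19. The word was thus chosen on these windows, and its frequency in them is a description. It was then searched on both strands of all windows, as the only motif searched. It was present in all 9 windows of the measured Pcdhb genes, in 0 of 16 Pcdha and Pcdhg windows and in 0 of the 16 windows given for the other members. Of all 33469 windows 0.221% held it, a share that includes the Pcdhb windows. Outside the clustered protocadherins it was in 0.176% of 33434 windows. Only exact matches were counted, so related words in the other windows were not looked for. The stretches below run 5′ to 3′ with the shared word in capitals and 15 bases on either side.
Pcdhb2 (chr18:29279918-29279957, + strand): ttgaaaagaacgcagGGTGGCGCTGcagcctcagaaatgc
Pcdhb3 (chr18:29285599-29285638, + strand): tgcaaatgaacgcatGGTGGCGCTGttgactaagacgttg
Pcdhb4 (chr18:29292206-29292245, + strand): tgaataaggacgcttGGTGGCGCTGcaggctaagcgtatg
Pcdhb5 (chr18:29302399-29302438, + strand): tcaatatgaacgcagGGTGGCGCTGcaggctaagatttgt
Pcdhb6 (chr18:29320147-29320186, + strand): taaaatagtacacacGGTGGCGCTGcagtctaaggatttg
Pcdhb8 (chr18:29339253-29339292, + strand): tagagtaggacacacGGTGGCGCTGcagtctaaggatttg
Pcdhb12 (chr18:29413643-29413682, + strand): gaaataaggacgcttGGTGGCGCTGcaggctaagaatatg
Pcdhb20 (chr18:29485805-29485844, + strand): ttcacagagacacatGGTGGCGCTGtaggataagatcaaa
Pcdhb21 (chr18:29492144-29492183, + strand): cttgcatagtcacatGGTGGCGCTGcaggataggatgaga

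The word began 52 to 98 bases before the annotated start in 7 of these genes, and 229 and 208 bases before it in Pcdhb6 and Pcdhb8. All 9 lie on the + strand of chromosome 18 and span 2.34 to 3.4 kb, whereas the other members span 4.57 to 1038 kb. A match of letters is not a binding site.

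After camptothecin, 4 of the 31 genes fell and 1 rose, and the other 26 did not pass the test. The type II cadherin genes Cdh20 and Cdh10 fell by 1.01 and 0.84 on the log2 scale, and the delta protocadherin genes Pcdh1 and Pcdh17 by 0.59 and 0.40. Pcdh8, another delta protocadherin gene, rose by 0.49. None of the 9 Pcdhb genes was called in either direction by limma. At an unadjusted p under 0.05, 4 of the 9 (44.4%) were higher, beside 22.2% of all genes and 27.3% of genes that span under 10 kb. With 9 genes, no difference from these shares was tested. Over all genes 9.35% fell and 11.3% rose, against 12.9% and 3.23% of the 31 members. Both shares rest on few genes.

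**Figure D1:**
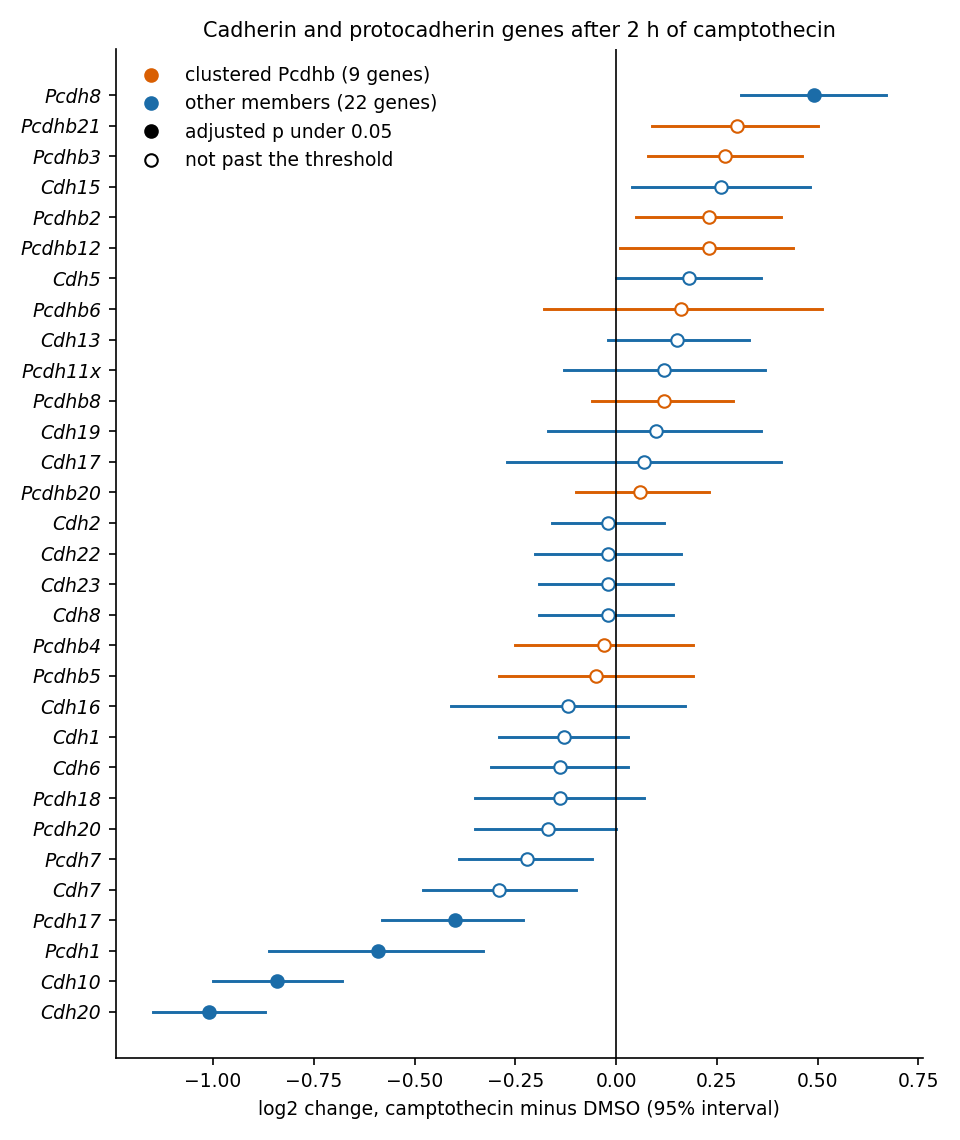
Log2 change of the 31 genes, camptothecin minus DMSO (x axis), with limma's 95% interval as a line, not adjusted for the number of genes. Filled points passed an adjusted p of 0.05, and orange marks the 9 clustered Pcdhb genes. The 5 called genes lie at the 2 ends of the order, from -1.01 for Cdh20 to 0.49 for Pcdh8, and all 9 Pcdhb genes lie between -0.05 and 0.30.

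Among the type II cadherins, Cdh20, known as the MN-cadherin of motor neuron pools, read 7.13, 7.15 and 7.10 in the camptothecin arrays and 8.12, 8.16 and 8.13 in the DMSO arrays. All camptothecin values thus lay well below all DMSO values, and the arrays of a treatment differed by at most a few hundredths. The change was -1.01 (SE 0.06, adjusted p = 0.000116), which is 2.02-fold lower. Cdh10, which is expressed in subsets of central neurons, read 8.57, 8.61 and 8.65 with camptothecin and 9.53, 9.41 and 9.41 with DMSO, again with no overlap. It was 1.79-fold lower (-0.84, SE 0.07, adjusted p = 0.00042). These were the only members that also passed at an adjusted p of 0.01 and fell, and both calls held in all 17 alternatives tried.

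The other 6 type II genes did not pass. Cdh7, which lies on chromosome 13 as Cdh20 does, read 8.51, 8.54 and 8.48 with camptothecin and 8.93, 8.81 and 8.67 with DMSO. The groups did not overlap, and the change of -0.29 (SE 0.08) just missed the threshold (adjusted p = 0.051). It passed in 8 of 17 alternatives, with adjusted p from 0.00356 to 1 over them. Cdh6, also a type II cadherin of spinal motor neurons, had a change of -0.14 (95% interval -0.31 to 0.03). Cdh22 had a change of -0.02 (-0.20 to 0.16), and the endothelial Cdh5 (0.18) and the Schwann cell lineage Cdh19 (0.10) were dim.

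Cdh8, the remaining type II gene, read 11.21, 11.28 and 11.19 with camptothecin and 11.30, 11.28 and 11.17 with DMSO. The groups overlapped, and the change was -0.02 (95% interval -0.19 to 0.14). Within 1 subfamily the changes therefore ran from -1.01 to 0.18. As deposited, the intervals of Cdh20 and Cdh10 did not reach that of Cdh8.

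Among the type I cadherins, Cdh2, the N-cadherin of neural tissue, read 11.48, 11.46 and 11.45 with camptothecin and 11.50, 11.48 and 11.45 with DMSO. Its change was -0.02 (SE 0.06, 95% interval -0.16 to 0.12). All 6 arrays lay within a narrow band, so a fall of the size seen in Pcdh17 lies outside this interval. Cdh1, the E-cadherin of epithelia (-0.13), and Cdh15, the M-cadherin of muscle (0.26, adjusted p = 0.104), were both dim. The groups did not overlap for either of them. With each array centred on its ribosomal protein genes Cdh2 (-0.27, adjusted p = 0.022) and Cdh8 (-0.27, adjusted p = 0.0204) passed the test, so their lack of a call holds relative to the deposited scale.

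The remaining cadherins did not pass. Cdh13, T-cadherin, which is held in the membrane by a lipid anchor and lacks the catenin-binding tail, read 9.80, 9.94 and 9.80 with camptothecin and 9.75, 9.71 and 9.61 with DMSO. All camptothecin values were above the DMSO values, and the change was 0.15 (95% interval -0.02 to 0.33, adjusted p = 0.216). Cdh16 (-0.12), Cdh17 (0.07) and Cdh23 (-0.02) are known for kidney, intestine and inner ear, and all 3 were dim.

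**Figure D2:**
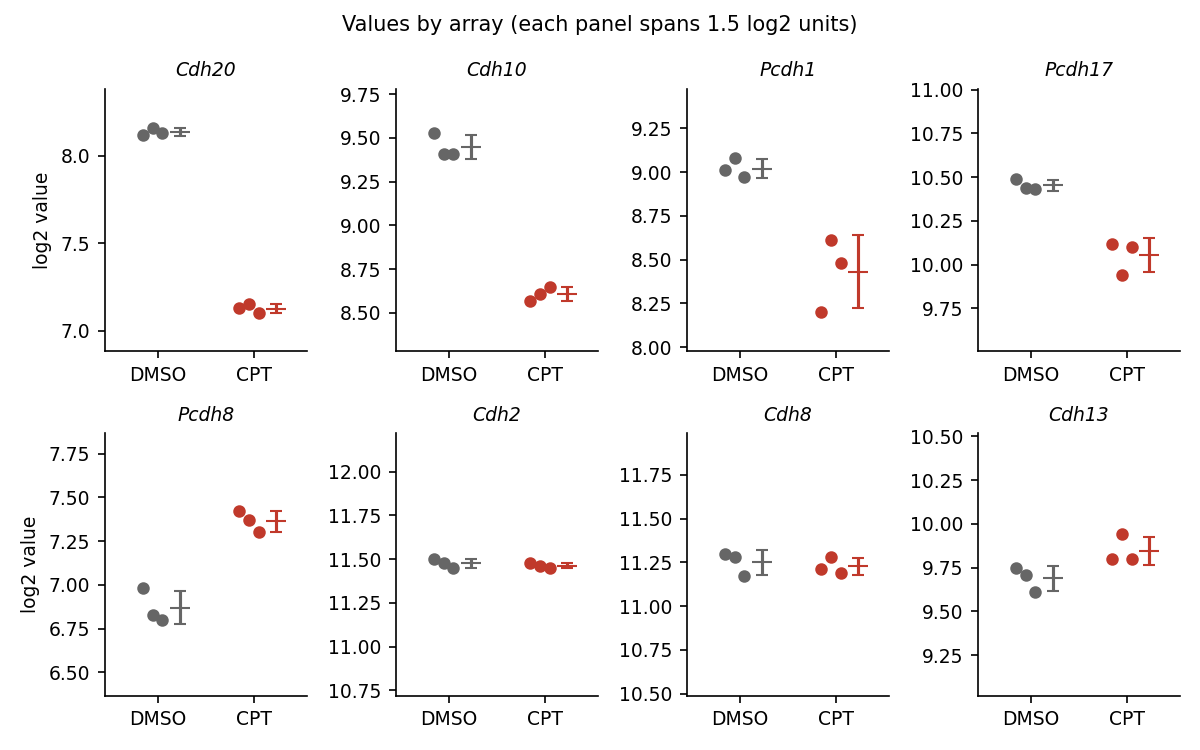
Log2 values (y axis) of 8 genes in the 3 DMSO arrays (grey) and the 3 camptothecin arrays (CPT, red), with the mean and SD beside the points. Every panel spans the same range. In Cdh20, Cdh10, Pcdh1, Pcdh17 and Pcdh8, and also in Cdh13, which was not called, the treatments do not overlap. In Cdh2 and Cdh8 they do.

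The delta protocadherins moved in both directions. Pcdh1 read 8.20, 8.61 and 8.48 with camptothecin and 9.01, 9.08 and 8.97 with DMSO. The treatments did not overlap, but the camptothecin arrays were spread more widely (SD 0.21 against 0.06). It was 1.51-fold lower (-0.59, SE 0.11, adjusted p = 0.0135), and the call was lost without DMSO replicate 2 (-0.56, adjusted p = 0.0533). Pcdh17, which in other neurons acts in axon extension and at synapses, read 10.12, 9.94 and 10.10 with camptothecin and 10.49, 10.44 and 10.43 with DMSO. It was 1.32-fold lower (-0.40, SE 0.07, adjusted p = 0.0124), and the call was lost without DMSO replicate 1 (-0.38, adjusted p = 0.0506).

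Pcdh8, known as an activity-regulated protocadherin of synapses that takes part in the internalisation of N-cadherin, read 7.42, 7.37 and 7.30 with camptothecin. In the DMSO arrays it read 6.98, 6.83 and 6.80. All camptothecin values lay above all DMSO values, and the gene was 1.41-fold higher (0.49, SE 0.08, adjusted p = 0.00669). The sign held under each scaling. With each array centred on its ribosomal protein genes the change was 0.24 and no longer passed (adjusted p = 0.0584). The call held with each array left out in turn (adjusted p from 0.0131 to 0.0325).

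The other protocadherins outside the clusters did not pass. Pcdh7 read 7.52, 7.40 and 7.48 with camptothecin and 7.69, 7.76 and 7.62 with DMSO, a change of -0.22 (SE 0.07, adjusted p = 0.0731) with no overlap. Pcdh20 (-0.17) also had no overlap, and Pcdh18 (-0.14) and the X-linked Pcdh11x (0.12) overlapped. Pcdh8, Pcdh17 and Pcdh20 all lie on chromosome 15, and their changes were 0.49, -0.40 and -0.17.

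The clustered genes stayed within a narrow range. Their changes ran from -0.05 to 0.30 with a median of 0.16, beside 0.10 for all genes that span under 10 kb, 0.06 for all genes and -0.07 for the other members. Of the 9 changes 77.8% were above 0, as were 72.4% of those of all genes under 10 kb, whose lower and upper quartiles were -0.01 and 0.24. A gene of this group had a 95% interval of 0.20 on either side in the median, so changes of the size seen in Cdh10 lie outside the intervals of all 9. The median difference of the 9 genes from their DMSO means was 0.16, 0.22 and 0.09 in the camptothecin arrays and -0.02, -0.02 and 0.03 in the DMSO arrays. For the other 22 it was -0.13, -0.05 and -0.05 with camptothecin and 0.04, 0.00 and -0.03 with DMSO. The median of the Pcdhb genes was above 0 as deposited, with quantile normalization again (0.12) and with arrays centred on their medians (0.10), and below 0 with each array centred on its ribosomal protein genes (-0.09), a setting that shifts the median of all rows by -0.25 and so carries changes of this size past 0. Without camptothecin replicate 2 it was 0.08 and without camptothecin replicate 3 it was 0.26.

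Of the 9 Pcdhb genes 4 had all camptothecin values above all DMSO values, and none had them all below. Pcdhb21 read 7.04, 6.87 and 6.92 with camptothecin and 6.53, 6.63 and 6.77 with DMSO (0.30, SE 0.09, adjusted p = 0.0555). Pcdhb3 read 7.37, 7.31 and 7.13 against 6.98, 7.03 and 6.98 (0.27, SE 0.08, adjusted p = 0.0621). Pcdhb2 read 7.53, 7.71 and 7.56 against 7.30, 7.40 and 7.39 (0.23, SE 0.08, adjusted p = 0.0817). These are small separations, and Pcdhb12 was the other separated gene, at 7.35, 7.59 and 7.31 against 7.26, 7.16 and 7.15 (0.23, adjusted p = 0.144).

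The other 5 Pcdhb genes overlapped between treatments. Pcdhb6 (0.16) read 6.57, 6.71 and 6.26 against 6.33, 6.16 and 6.56, the widest spread among the 9. Pcdhb8 had a change of 0.12 and Pcdhb20 of 0.06. Pcdhb4 (-0.03) and Pcdhb5 (-0.05) were the 2 below 0. Pcdhb6 and Pcdhb8, whose printed stretches carry the same 25 bases from the shared word on, had changes of 0.16 and 0.12. Genes of this array of tandem copies are alike in sequence, and whether probes of 1 gene also bound the RNA of another was not tested.

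**Figure D3:**
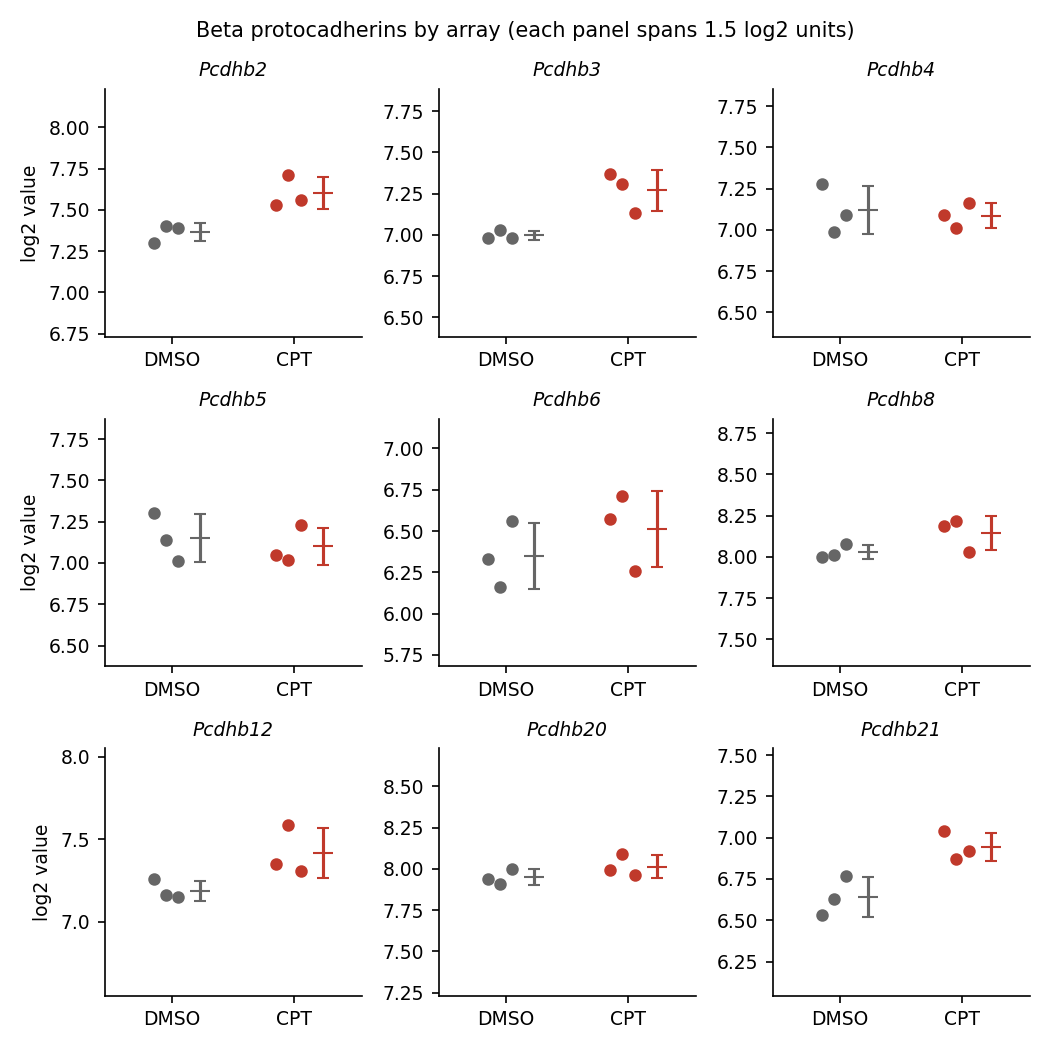
Log2 values (y axis) of the 9 Pcdhb genes in the 3 DMSO arrays (grey) and the 3 camptothecin arrays (CPT, red), with the mean and SD beside the points, in the order of the genes along the chromosome. The treatments do not overlap in Pcdhb2, Pcdhb3, Pcdhb12 and Pcdhb21, where the changes are 0.23 to 0.30.

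Across all genes 42.6% had treatments that did not overlap, 27.1% with camptothecin higher and 15.5% with camptothecin lower. The 4 separated Pcdhb genes, 44.4% of the 9, all had camptothecin higher. Among genes that span under 10 kb, as the Pcdhb genes do, 31.3% had camptothecin higher throughout, and 15.3% rose. With 9 genes, no difference from these shares was tested. Of the other members 13 of 22 (59.1%) did not overlap, 9 of them with camptothecin lower and 4 with camptothecin higher. Their median span is 118 kb, and among genes of 100 kb or more 58.2% did not overlap and 47.8% had camptothecin lower throughout. Of the 12 members of 100 kb or more 6 (50%) did not overlap, 5 of them with camptothecin lower. Of the 10 other members under 100 kb 7 (70%) did not overlap, 4 of them with camptothecin lower. The part of span in these shares was not tested.

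The Pcdha and Pcdhg genes were measured by rows that list several genes, so no single gene of theirs is named. The row with 15 Pcdha symbols read 7.24, 7.31 and 7.23 with camptothecin and 7.21, 7.14 and 7.16 with DMSO (0.09, 95% interval -0.06 to 0.24, adjusted p = 0.393). The row with 13 Pcdhg symbols read 8.39, 8.35 and 8.40 with camptothecin and 8.20, 8.25 and 8.23 with DMSO (0.16, 0.01 to 0.30, adjusted p = 0.13). In both rows all camptothecin values were above all DMSO values. A row with 2 Pcdhb symbols overlapped (0.07, adjusted p = 0.719). None of the 3 rows passed the test.

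The members differ widely in genomic span, taken from GRCr8. Of the 12 members of 100 kb or more, 2 fell and 0 rose, which is 16.7% falling against 34.8% of the 1631 genes of that span. Their median change was -0.02, beside -0.14 for all genes of 100 kb or more. Cdh20 (331 kb) and Cdh10 (222 kb) fell, whereas Cdh2 (214 kb), Cdh8 (407 kb), Pcdh11x (695 kb) and Cdh13 (1038 kb) had changes of -0.02, -0.02, 0.12 and 0.15. The other falls were in genes under 100 kb, Pcdh17 at 93.5 kb and Pcdh1 at 32.7 kb. Pcdh8, the gene that rose, spans 4.57 kb. Across the 31 members, which share the same arrays, Spearman's rho of span and change was -0.39, and across the 22 members outside the clusters -0.09. Over the 14474 genes with a span it was -0.31. The members' coefficient thus rests on the short Pcdhb genes.

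**Figure D4:**
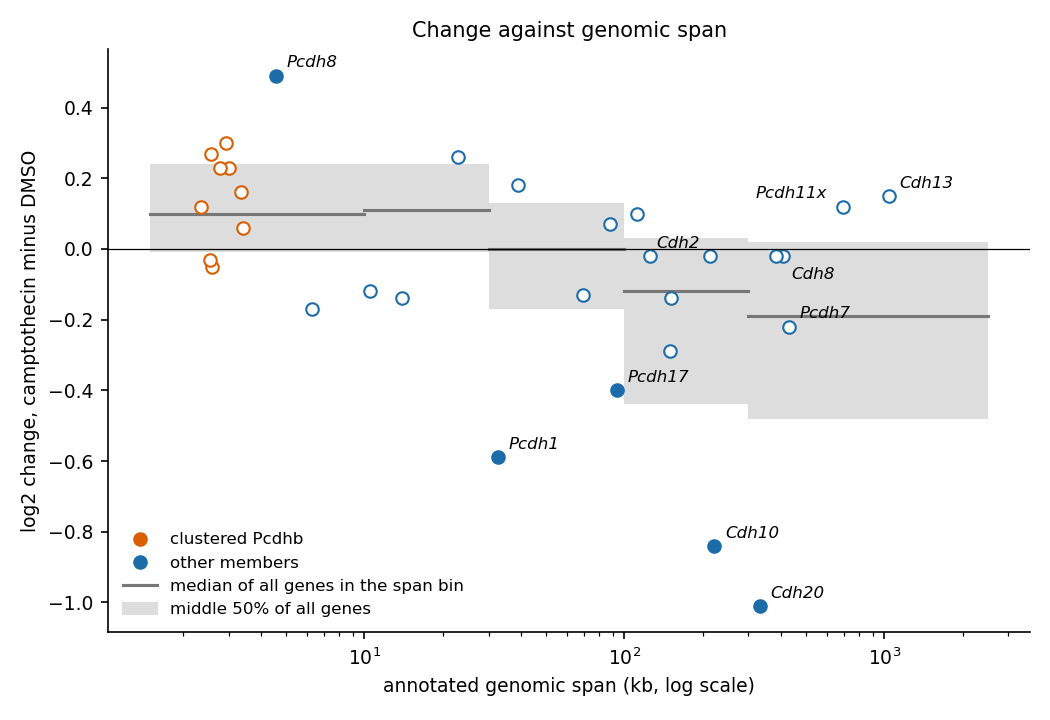
Log2 change (y axis) against annotated genomic span in kb (x axis, log scale) for the 31 members, filled where past the threshold, over the median and middle 50% of all genes in each span bin. The Pcdhb genes sit together at the short end, and members of 100 kb or more run from -1.01 for Cdh20 to 0.15 for Cdh13.

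Partners of the cadherins on the inside of the cell changed in both directions. Of 10 measured catenins and actin linkers 4 fell and 2 rose, where 9.35% of all genes fell and 11.3% rose. Their median change was -0.01 beside 0.06 for all genes. With 10 genes, no difference from these shares was tested. Vcl, the actin linker vinculin, read 7.55, 7.72 and 7.51 with camptothecin and 8.31, 8.21 and 8.23 with DMSO (-0.66, SE 0.08, adjusted p = 0.00233). Afdn, the actin-binding afadin of nectin junctions (-0.49, SE 0.06), Ctnnal1, an alpha-catenin-like protein (-0.44, SE 0.08), and Ctnnd1, p120-catenin, which holds cadherins at the membrane (-0.29, SE 0.06), also fell. The rises were Ctnna2, the neuronal alpha-catenin (0.32, SE 0.07), and Jup, plakoglobin (0.31, SE 0.06). Ctnna2 spans 1149 kb. The calls of Ctnnd1, Ctnna2 and Jup were each lost without camptothecin replicate 3 and without any 1 of the DMSO arrays, with adjusted p up to 0.0859, 0.0723 and 0.0702. Those of Ctnna2 and Jup were also lost with each array centred on its median. Ctnnb1, beta-catenin, had a change of 0.06 (95% interval -0.13 to 0.26).

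Of the 10 measured genes listed as chromatin factors of the protocadherin clusters, 3 fell and 2 rose, with a median change of 0.09. Over all genes 9.35% fell and 11.3% rose, and no difference from these shares was tested. Ctcf read 8.78, 8.87 and 8.69 with camptothecin and 9.93, 9.88 and 9.79 with DMSO, 2.13-fold lower with no overlap (-1.09, SE 0.08, adjusted p = 0.000234). Stag1, a cohesin subunit, fell by 0.84 on the log2 scale (SE 0.07) and Smc3, another, by 0.28 (SE 0.06). The cohesin subunit gene Smc1a rose by 0.26 (SE 0.06), and Rad21 had a change of 0.07 and did not pass. The call of Smc1a was lost with any 1 of the 6 arrays left out (adjusted p from 0.0503 to 0.104), and that of Smc3 with any but camptothecin replicate 1 (up to 0.0954). Those of Ctcf and Stag1 held in all 17 alternatives. Rest, a repressor of neuronal genes, read 7.94, 7.96 and 7.98 with camptothecin and 7.41, 7.51 and 7.40 with DMSO (0.52, SE 0.07, adjusted p = 0.00266). These RNA levels and those of the Pcdhb genes are given side by side, and no relation between them was tested.

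Other members of the wider cadherin superfamily were also measured. Of 13 measured, 4 of them dim, 1 rose and 0 fell, with a median change of -0.01. Over all genes 11.3% rose and 9.35% fell, and with 13 genes no difference from these shares was tested. The rise was Celsr2, a seven-pass cadherin (0.38, SE 0.09, adjusted p = 0.0262), and it was lost in 8 of 17 alternatives, among them those without camptothecin replicate 2 or 3 or DMSO replicate 1 or 3 (adjusted p up to 0.0849). Cdhr1, a photoreceptor cadherin (0.40, SE 0.12), did not pass, and neither did Fat3 (-0.24) or Ret (-0.17), the cadherin-domain receptor kinase for GDNF.

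Among 9 genes for cadherin cleavage and turnover, 2 fell and 1 rose, with a median change of 0.13. Over all genes 9.35% fell and 11.3% rose. Numb, an endocytic adaptor that binds cadherin complexes, read 7.03, 7.05 and 6.83 with camptothecin and 7.54, 7.68 and 7.76 with DMSO (-0.69, SE 0.09, adjusted p = 0.00364). Pcsk5, a proprotein convertase, was dim (-0.31, SE 0.06, adjusted p = 0.0201). Its call was lost without camptothecin replicate 3 and without any 1 of the DMSO arrays (adjusted p up to 0.0728). Psenen, a gamma-secretase subunit, rose by 0.42 (SE 0.08, adjusted p = 0.0106), a call lost with ribosomal centring (0.17). Of 15 signalling partners of protocadherins 2 fell and 1 rose, with a median change of 0.04. No difference of either list from the shares over all genes was tested. Ptk2, the focal adhesion kinase, changed by -0.50 (SE 0.07), Axin1, a scaffold of Wnt signalling, by -0.41 (SE 0.08) and Ppp1ca, a phosphatase subunit, by 0.32 (SE 0.08). The call of Axin1 was lost without DMSO replicate 1 (adjusted p = 0.06) or 2 (0.0629), and that of Ppp1ca in 10 of 17 alternatives, including each array left out but camptothecin replicate 1 (up to 0.114). Nckap1, a WAVE complex subunit that binds delta protocadherins, had a change of 0.02 (95% interval -0.13 to 0.17).

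The scale of the arrays bears on the smaller changes. Quantile normalization again and centring on the array medians kept the sign of all 5 called members and their calls. Centring on the ribosomal protein genes, which moves all rows down, left Cdh20, Cdh10, Pcdh1 and Pcdh17 called and gave 14 falls and 0 rises among the 22 other members. The same scaling had 29.9% of all genes and 66.7% of genes of 100 kb or more fall. Of the 22 other members 10 span under 100 kb. The 14 falls are given beside these shares, and no difference from them was tested. None of the Pcdhb genes was called under any of these 3 scalings.

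**Figure D5:**
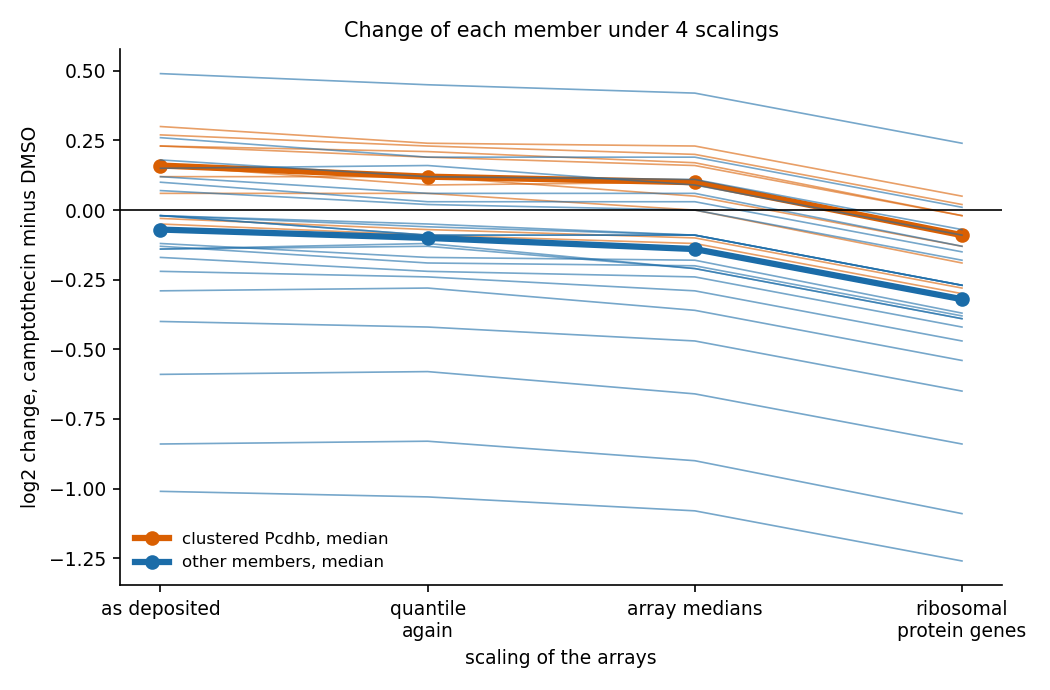
Log2 change (y axis) of each of the 31 members (thin lines) under 4 scalings of the arrays (x axis), with the median of the 9 clustered Pcdhb genes and of the 22 other members as thick lines. The Pcdhb median goes from 0.16 to -0.09 and the other median from -0.07 to -0.32, while Cdh20 and Cdh10 stay at the bottom.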

How the data were processed

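The deposited values are log2 expression values of Affymetrix Rat Gene 1.0 ST arrays, made with RMA and oligo per the submitters' processing notes. No version, probe annotation or build is named in those sources. The values were tested as deposited with lmFit and eBayes of limma 3.58.1 in R 4.3.3, with two-sided p-values adjusted by Benjamini-Hochberg across the 29214 rows, unfiltered. The script was tested on simulated data. Of the rows, 15310 had 1 symbol in the platform annotation, 323 several and 13581 none, and 15279 of the 15310 matched RefSeq. Precision is limited by the 6 arrays.

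The members and the gene lists were chosen with earlier results of these data known. The text names every called member, every Pcdhb gene, the 3 members with the highest DMSO mean and the 5 members nearest the threshold. From each gene list other than the cell type marker lists it names up to 3 called genes (otherwise the 1 with the largest change). Other genes were named after their values were seen. The shared promoter word was also chosen then. Same-numbered replicates did not deviate together (r = -0.084, 0.022 and 0.085), so samples were not paired. Alternatives covered scaling, dim rows, blocks, variance model, weights, thresholds and each array left out.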

Additional observations from a re-analysis of the deposited data

How the results depend on the processing

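Cdh20 and Cdh10 kept their falls and Pcdhb4, Pcdhb5, Pcdhb6, Pcdhb8, Pcdhb12 and Pcdhb20 their lack of a call in all 17 alternatives. Other members that fell numbered 4 as reported, 2 at an adjusted p of 0.01 and 2 with limma's treat against a 1.2-fold change. They numbered 6 without dim rows (15 members tested), 6 with 1-symbol rows only and 14 with arrays centred on ribosomal protein genes. With quantile normalization again, median centring, eBayes trend and robust, or array weights they numbered 5, and with 1 array left out 3 to 5. Other members that rose numbered 1 as reported, and 0 with ribosomal centring and with treat. Clustered protocadherins that rose numbered 0 as reported, 3 without dim rows, 3 with 1-symbol rows only, 2 with eBayes trend and robust, 1 with array weights, and 0 to 1 with 1 array left out (1, Pcdhb3, without camptothecin replicate 3). Clustered protocadherins that fell numbered 0 in all of them. Fewer rows are tested in the settings without dim rows and with 1-symbol rows. The cause of the changed counts was not tested for any setting. With the replicate number as a block, 4 other members fell, 1 rose and 0 Pcdhb genes were called, the same calls as without it. Among the partner genes named, the block ended the calls of Ctnnd1 (adjusted p = 0.0708), Ctnna2 (0.0624), Jup (0.0604), Smc3 (0.0752), Smc1a (0.0872), Pcsk5 (0.0693) and Ppp1ca (0.0745). Of the 31 members 7 were dim, and a lack of calls among dim rows does not show that levels stayed equal.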
